A study of Mus musculus with 12 samples.

Results

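The peaks assigned to interleukins and interleukin receptors were read from an ATAC-seq study of mouse macrophages. Members were all peaks whose nearest gene has a symbol that starts with Il and a digit. Il1a, Il1b, Il1rn, Il1r2, Il18, Il12a, Il12b, Il23a, Il27, Il6 and Il4ra were left out. The rule found 467 of the 139999 peaks, assigned to 63 of 19395 genes. A gene had 1 to 24 peaks, with a median of 5. Distances run to the annotated start that is listed for a peak, and a gene may have more than 1 such start. Il4i1, an L-amino acid oxidase, was included by its name only, and Il22b is a near copy of Il22, so reads of these 2 genes may be split between them.

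ATAC-seq measures open chromatin by the insertion of a transposase, and the signal of a peak is the number of reads in it. The cells were macrophages grown from the marrow of male C57BL/6J mice, aged 8 weeks at allocation, and the 12 libraries fall into 6 groups of 2. Diabetic mice had received streptozotocin, a toxin of insulin-producing cells, at 42 to 45 mg/kg daily on 5 days, each after fasting for 12 h. They counted as diabetic above 16.9 mmol/L blood glucose and were hyperglycaemic for 6 weeks before marrow was taken, and the control mice were from the same strain. The first phase has the groups Diabetic and Healthy, for which the labels do not give the time of collection. The rest phase has the groups Diabetic-trained and Untrained, kept in culture with M-CSF and 5 mmol/L glucose over 7 days. The second phase has groups of the same names, which then received LPS at 100 ng/mL together with 10 ng/mL of IFN-γ over 16 h. The labels do not say whether the libraries of a group came from separate mice, so p-values describe library-to-library spread that may be technical.

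Interleukins are secreted proteins that carry signals between immune cells. Receptors of the common γ chain, IL-6, IL-10 and IL-12 families signal through Janus kinases and STAT transcription factors, and receptors of the IL-1 family through the adaptor MyD88 to NF-κB. Macrophages both release and sense interleukins, and IFN-γ with LPS is the classical stimulus that activates them.

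Promoter sequences are shown for 6 members, chosen after their values were seen. Their peak at the gene start moved between phases and overlapped a RefSeq promoter window. All 6 hold a match to a motif named below. The windows over the start peaks of Il2ra, Il2rg, Il33 and Il11ra1, and over a peak at an Il1r1 start, which also moved, hold none. The printed windows thus do not stand for all start peaks that moved. RefSeq windows (build GRCm38.p6) reach from 250 bases before to 50 after a start, and 47 of the 63 genes had at least 1, with 58 windows in all, of which 29 overlapped a peak of their gene. Printed are the 250 bases before the start, 5′ to 3′ on the strand of the gene. Capitals mark matches, on either strand, to simplified motifs of 6 kinds of transcription factor: GAAA-NN-GAAA (ISRE, bound by interferon regulatory factors), TTCNNNGAA (GAS, bound by STATs), GGG-NN-TTTCC (κB, bound by NF-κB), TGANTCA (bound by AP-1), GAGGAAGT (bound by PU.1) and AGATAA (bound by GATA factors). The Il23r window (chr6:67491856-67492105, minus strand) and the Il16 window (chr7:83655496-83655745, minus strand) hold a κB match. The Il7r window (chr15:9529877-9530126, minus strand) and the Il12rb2 window (chr6:67376189-67376438, minus strand) hold a GAS match. The Il1rl1 window (chr1:40429320-40429569, plus strand) holds a GATA match, and the Il5ra window (chr6:106749038-106749287, minus strand) an AP-1 and a GATA match that do not overlap.
Il23r: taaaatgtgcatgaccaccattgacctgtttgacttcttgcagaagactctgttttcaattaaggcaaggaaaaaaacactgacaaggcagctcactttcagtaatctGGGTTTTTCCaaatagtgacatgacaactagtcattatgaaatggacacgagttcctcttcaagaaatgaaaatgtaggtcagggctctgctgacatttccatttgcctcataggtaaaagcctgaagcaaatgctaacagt
Il16: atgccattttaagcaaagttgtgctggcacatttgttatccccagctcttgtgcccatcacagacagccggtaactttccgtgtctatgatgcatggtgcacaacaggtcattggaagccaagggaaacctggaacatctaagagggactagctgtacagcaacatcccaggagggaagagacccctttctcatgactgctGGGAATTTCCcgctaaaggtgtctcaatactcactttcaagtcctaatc
Il7r: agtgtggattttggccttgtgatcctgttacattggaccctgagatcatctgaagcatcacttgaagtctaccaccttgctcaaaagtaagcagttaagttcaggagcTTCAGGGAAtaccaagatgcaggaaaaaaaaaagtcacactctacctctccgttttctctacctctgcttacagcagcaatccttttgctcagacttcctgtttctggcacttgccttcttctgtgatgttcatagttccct
Il12rb2: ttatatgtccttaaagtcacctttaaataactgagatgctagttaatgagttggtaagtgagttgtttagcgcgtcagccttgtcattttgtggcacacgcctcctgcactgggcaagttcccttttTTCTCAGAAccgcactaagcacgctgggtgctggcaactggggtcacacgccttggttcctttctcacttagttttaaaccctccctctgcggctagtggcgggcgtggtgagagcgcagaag
Il1rl1: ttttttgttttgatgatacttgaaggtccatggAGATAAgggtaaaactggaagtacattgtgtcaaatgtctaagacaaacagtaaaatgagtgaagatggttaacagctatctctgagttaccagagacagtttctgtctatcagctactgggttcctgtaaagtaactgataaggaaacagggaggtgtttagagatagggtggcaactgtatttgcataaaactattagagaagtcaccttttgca
Il5ra: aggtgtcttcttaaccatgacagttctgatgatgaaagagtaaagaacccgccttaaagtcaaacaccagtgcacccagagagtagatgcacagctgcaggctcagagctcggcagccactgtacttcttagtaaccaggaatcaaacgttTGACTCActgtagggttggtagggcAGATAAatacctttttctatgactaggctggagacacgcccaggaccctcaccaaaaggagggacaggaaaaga

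Over all 32851 windows, 3.44% held the ISRE letters, 8.3% GAS, 1.63% κB, 7.81% AP-1, 3.2% PU.1 and 11.2% GATA. Of the 58 windows of the members, 3 (5.17%) held ISRE, 7 (12.1%) GAS, 4 (6.9%) κB, 8 (13.8%) AP-1, 2 (3.45%) PU.1 and 10 (17.2%) GATA. A match is a description of the letters and not a binding site.

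The deposited tables hold group means, and their headers do not tie a mean column to a diabetic or a control group. Within each phase, A stands for the group of the first mean column and B for the other, and A of one phase need not be A of another. Whole reads of each library were recovered from the means, and libraries are numbered 1 and 2 without a tie to the replicate numbers of the labels. Reads in peaks ran from 3827344 (second-phase B1) to 18602644 (rest-phase A1) per library, with a median of 9 to 56 reads per peak. First-phase A1 and A2 were almost as alike as sampling noise allows (variance ratio 1.13, against 2.07 to 15.7 in the other 5 groups) and were counted as 1 sample where phases are compared. A log2 level below is the log2 of reads scaled to a common distribution over all 12 libraries, plus 1. Levels of a phase are given in the order A1, A2, B1 and B2.

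In the second phase, libraries A1 and B1 stood apart from A2 and B2. Library A1 was nearer to rest-phase A1 (variance ratio 1.94) than to second-phase A2 (15.7), and B1 was nearer to rest-phase B1 (5.19) than to second-phase B2 (7.81), while A2 was nearest to B2 (2.23). Gbp2, an interferon-induced GTPase, had second-phase log2 levels of 7.41, 9.68, 7.15 and 9.81, beside 6.55 to 7.28 in the rest phase. Nos2, the inducible nitric oxide synthase, had 9.16, 10.82, 9.32 and 11.24, and Cxcl10, an interferon-induced chemokine, 8.26, 9.89, 8.08 and 10.03. These genes were high in A2 and B2 only among the second-phase libraries. Results on the second phase are given with all 4 libraries and without A1 and B1.

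From the first to the rest phase, the accessibility of the interleukin genes moved in both directions. Of the 464 member peaks with reads in every library, 81 (17.5%) were higher and 100 (21.6%) lower in the rest phase at an adjusted p under 0.05 (limma, n = 4 against 3), where 19.8% and 18.9% of all peaks were. As sums over all peaks of a gene, 21 of the 63 genes (33.3%) were higher and 15 (23.8%) lower, beside 25.5% and 26.6% of all genes, and 27 did not pass. The median log2 fold of the member peaks was -0.12, and that of all peaks 0.02. Scaling to total reads in peaks gave 109 higher and 66 lower member peaks, and 24 higher and 9 lower genes, with the median of all peaks at 0.295. Of the called member peaks 62.3% were then higher, beside 66.4% of all called peaks. Of the called member genes 72.7% were, beside 56.3% of all called genes. Quantile scaling gave 44.8% beside 51.2% for peaks, and 58.3% beside 49.0% for genes. Among the member genes, Il7r, Il20, Il23r and Il20rb rose, and Il36g, Il2rb, Il5ra and Il22ra2 fell.

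**Figure D1:**
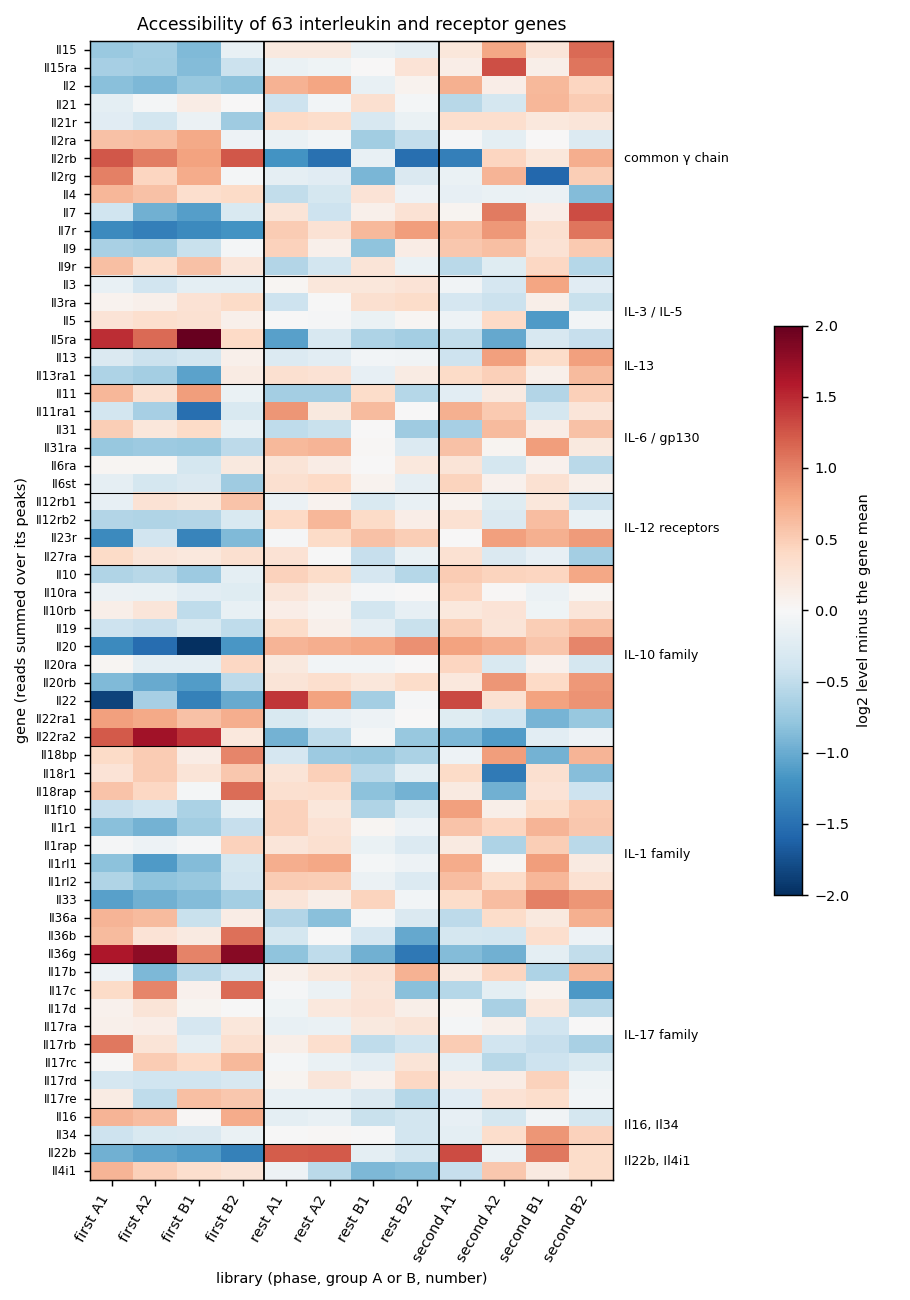
Log2 level of each of the 63 genes (rows, reads summed over the peaks of the gene, ordered by family) in each of the 12 libraries (columns), as the difference from the mean of the gene, with red above and blue below it. Il7r and Il20 are blue in the 4 first-phase libraries and red in the rest phase, and Il36g shows the reverse; in the second phase Il15ra is darker red in A2 and B2 than in A1 and B1.

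In the common γ chain family, 5 of 13 genes rose and 5 fell, beside 25.5% and 26.6% of all genes. Of its 111 tested peaks 24 rose and 24 fell, beside 19.8% and 18.9% of all peaks. Il7r, the α chain of the IL-7 receptor, had log2 levels of 8.95, 8.86, 8.95 and 9.03 in the first phase and of 10.73, 10.52, 10.87 and 11.06 in the rest phase. Every rest-phase library lay above every first-phase library, and the log2 fold was 1.80 (SE 0.14, adjusted p = 1e-05). The peak over the Il7r start, in the printed promoter, rose by less (log2 fold 1.10, SE 0.25, adjusted p = 0.00307). A peak 99.5 kb before the start, in an intron of the neighbouring gene Spef2, rose more (log2 fold 3.34, SE 0.44, adjusted p = 4.15e-05). Il7, the ligand, rose by a log2 fold of 0.75 (SE 0.24, adjusted p = 0.0209). Il15, a ligand that shares the β and γ chains of the IL-2 receptor, rose by 0.59 (SE 0.18, adjusted p = 0.0180), and Il15ra, the chain that presents it, by 0.68 (SE 0.16, adjusted p = 0.00512). Il2, the T cell growth factor, rose by 1.17 (SE 0.22, adjusted p = 0.00135).

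The chains of the IL-2 receptor moved the other way. Il2rb, the β chain, had log2 levels of 8.00, 7.78, 7.55 and 8.00 in the first phase and of 5.56, 5.26, 6.60 and 5.24 in the rest phase, with a log2 fold of -2.14 (SE 0.31, adjusted p = 0.000243). The phases did not overlap, and library B1 was the highest of the rest phase. Il2rg, the common γ chain itself, had 7.41, 6.83, 7.14 and 6.36 in the first phase and 6.22, 6.17, 5.49 and 6.11 in the rest phase (log2 fold -0.88, SE 0.26, adjusted p = 0.0144). Its first-phase library B2 lay close to the rest phase. Il2ra, the α chain, fell by 0.76 on the log2 scale (SE 0.23, adjusted p = 0.0152). Its peak 6.4 kb before the start had levels of 6.45, 6.61, 6.88 and 4.64 in the first phase and of 2.14, 2.70, 2.22 and 2.14 in the rest phase (log2 fold -3.71, SE 0.49, adjusted p = 4.23e-05). Il4, the type 2 cytokine, and Il9r, the IL-9 receptor, also fell (log2 folds -0.62 and -0.64, adjusted p = 0.0323 and 0.0270). Without first-phase library B1 the calls of Il2ra, Il2rg, Il7 and Il15 were lost (adjusted p = 0.0789, 0.0685, 0.0996 and 0.0825). The call of Il7 was also lost without rest-phase A1 (0.0509) or B2 (0.0535), that of Il15 with median-of-ratios scaling (0.0735) and that of Il2rg with total reads in peaks (0.0606).

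In the IL-3 and IL-5 family, Il5ra, the IL-5 receptor of eosinophils, fell and Il3, Il3ra and Il5 did not pass. Il5ra had log2 levels of 6.94, 6.60, 7.48 and 5.86 in the first phase and of 4.38, 5.15, 4.85 and 4.79 in the rest phase (log2 fold -1.90, SE 0.35, adjusted p = 0.00102). The peak over its start, in the printed promoter, had 6.21, 6.18, 7.18 and 4.99 in the first phase and 2.77 to 3.12 in the rest phase (log2 fold -3.15, SE 0.44, adjusted p = 7.53e-05). Il13ra1, an IL-13 receptor chain, was higher in the rest phase by a log2 fold of 0.67 (SE 0.25, adjusted p = 0.0396). That call was lost without first-phase B1 (adjusted p = 0.187), without any of the rest-phase libraries A1, A2 and B2 (0.0749, 0.075 and 0.0676), and with median-of-ratios scaling (0.0868).

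In the group of IL-6 and gp130-like genes, Il6st, which encodes gp130, rose by a log2 fold of 0.56 (SE 0.17, adjusted p = 0.0164). That call was lost without first-phase B2 (0.0592) and with median-of-ratios scaling (0.136). Il11ra1, the IL-11 receptor, a gene with near copies between which reads may be split, had 1 peak and rose by 1.20 (SE 0.30, adjusted p = 0.00639). Il31ra, the IL-31 receptor, rose by 0.94 (SE 0.23, adjusted p = 0.00567), and its ligand Il31 fell by 0.60 on the log2 scale (SE 0.22, adjusted p = 0.0371). Il6ra, the IL-6 receptor, had a log2 fold of 0.19 (SE 0.15) that did not pass (adjusted p = 0.295).

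Of the 4 receptor genes of the IL-12 family, Il23r and Il12rb2 rose and none fell. Il23r, the IL-23 receptor, had log2 levels of 5.53, 6.43, 5.48 and 5.93 in the first phase and of 6.79, 7.19, 7.40 and 7.30 in the rest phase (log2 fold 1.34, SE 0.22, adjusted p = 0.000462). Its peak 45.5 kb inside the gene, in an intron, had 3.55, 4.34, 2.70 and 2.92 and then 6.25, 6.73, 6.63 and 6.55 (log2 fold 3.31, SE 0.34, adjusted p = 6.24e-06). At both the phases did not overlap. Il12rb2, the signalling chain of the IL-12 receptor, rose by 0.89 over all its peaks (SE 0.16, adjusted p = 0.000995). The peak at its start, in the printed promoter, had 7.17, 6.87, 7.28 and 7.25 and then 8.30, 8.52, 8.11 and 8.16 (log2 fold 1.17, SE 0.19, adjusted p = 0.000231). Il12rb1, the shared chain, had a log2 fold of -0.42 (adjusted p = 0.0642), and Il27ra, the IL-27 receptor, of -0.36 (adjusted p = 0.146).

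In the IL-10 family, Il20 and Il22, both cytokines that act on epithelia, and Il20rb, a receptor chain for IL-20, rose, and the IL-22 receptor chains Il22ra1 and Il22ra2 fell. Il20 had log2 levels of 4.88, 4.62, 3.98 and 4.98 in the first phase and of 6.83, 6.88, 6.92 and 7.06 in the rest phase (log2 fold 2.34, SE 0.25, adjusted p = 4.27e-05). Il22ra2, a soluble decoy receptor, had 6.58, 7.03, 6.80 and 5.57 and then 4.41, 4.85, 5.32 and 4.59 (log2 fold -1.59, SE 0.34, adjusted p = 0.00254). Il20rb rose by 1.16 (SE 0.15, adjusted p = 0.000152). Its peaks split by position: a peak 21.0 kb downstream of the start, in no RefSeq gene, had 5.06, 4.75, 4.82 and 5.56 and then 8.27, 8.47, 8.30 and 8.44 (log2 fold 3.36, SE 0.23, adjusted p = 5.03e-07). The peak near its start fell by 2.67 on the log2 scale (SE 0.56, adjusted p = 0.00173). Il10, an inhibitor of macrophage activation, did not pass as a sum (log2 fold 0.47, SE 0.24, adjusted p = 0.125). Of its 16 peaks 3 rose and 4 fell, beside 19.8% and 18.9% of all peaks. The peak over its start rose by 1.23 (SE 0.31, adjusted p = 0.00563) and one 22.9 kb beyond it by 2.44 (SE 0.29, adjusted p = 1.81e-05). One 21.9 kb before the start fell (log2 fold -1.44, SE 0.40, adjusted p = 0.0104). The receptor chains Il10ra and Il10rb did not pass as sums (0.29 and 0.07), and the start peak of Il10rb fell by 1.36 on the log2 scale (SE 0.19, adjusted p = 6.48e-05).

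In the IL-1 family, 4 of 12 genes rose and 3 fell, beside 25.5% and 26.6% of all genes. Il36g, a cytokine of barrier tissues, had log2 levels of 9.26, 9.43, 8.63 and 9.47 in the first phase and of 6.84, 7.13, 6.68 and 6.22 in the rest phase (log2 fold -2.45, SE 0.25, adjusted p = 3.22e-05). The peak over its start had 8.11, 8.13, 7.64 and 7.90 and then 3.10, 3.22, 4.65 and 4.30 (log2 fold -4.08, SE 0.38, adjusted p = 2.88e-06). The phases were apart at both. Il18bp, a soluble inhibitor of IL-18, fell by 1.12 on the log2 scale (SE 0.21, adjusted p = 0.00129), and Il36b, another IL-36 cytokine, by 1.02 (SE 0.36, adjusted p = 0.0344). Il33, an alarmin, rose by 1.05 (SE 0.16, adjusted p = 0.000363), Il1r1, the signalling receptor for IL-1, by 0.85 (SE 0.16, adjusted p = 0.00138) and Il1rl2, the IL-36 receptor, by 0.77 (SE 0.21, adjusted p = 0.00996). Of the 24 peaks of Il1r1 5 rose and 4 fell, beside 19.8% and 18.9% of all peaks. At 1 RefSeq start of Il1r1 the peak did not pass (log2 fold 0.78, adjusted p = 0.0633). At another start the peak fell (log2 fold -1.95, adjusted p = 0.000394).

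Il1rl1, which encodes the IL-33 receptor ST2 and is known to be transcribed from separate promoters, rose by 1.06 over its 18 peaks (SE 0.24, adjusted p = 0.00348) while the peak just before its start fell. That peak, in the printed promoter, had log2 levels of 5.70, 6.47, 6.51 and 5.48 in the first phase and of 2.14, 1.94, 3.36 and 2.39 in the rest phase (log2 fold -3.56, SE 0.43, adjusted p = 2.04e-05). An intron peak of Il1rl1, 4.1 kb beyond an annotated start other than the one above, had 4.71, 4.54, 5.78 and 5.48 and then 8.87, 8.51, 7.75 and 7.35 (log2 fold 2.89, SE 0.37, adjusted p = 3.65e-05). At both peaks the phases did not overlap, in opposite directions. Il18r1 and Il18rap, the chains of the IL-18 receptor, did not pass as sums (log2 folds -0.40 and -0.81), and their start peaks fell by 2.79 (SE 0.34, adjusted p = 2.49e-05) and by 1.59 (SE 0.29, adjusted p = 0.000543). Il1rap, the accessory chain shared by IL-1 and IL-33 receptors, had a log2 fold of -0.08 as a sum.

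In the IL-17 family, Il17b, a cytokine, and Il17rd rose as sums (log2 folds 0.79 and 0.57, adjusted p = 0.0108 and 0.0065), and Il17rc, a chain of the IL-17 receptor, fell by 0.49 (adjusted p = 0.0428). Il17b has 1 peak, which did not pass in the limma fit of peaks (log2 fold 0.62, adjusted p = 0.123). Of the 9 peaks of Il17rd none passed. Il17ra, the chain shared by IL-17 receptors, had a log2 fold of 0.04 as a sum, with peaks that moved in opposite directions. The peak over its start had 8.08, 8.29, 8.07 and 7.85 in the first phase and 5.68, 6.19, 6.77 and 6.82 in the rest phase (log2 fold -1.75, SE 0.28, adjusted p = 0.000208). One 9.8 kb before it had 7.00, 6.80, 6.83 and 7.29 and then 9.89, 9.56, 9.04 and 9.22 (log2 fold 2.60, SE 0.22, adjusted p = 1.5e-06). Il16, a chemoattractant of CD4+ cells, fell by 0.74 (SE 0.17, adjusted p = 0.00412), and a peak that reaches into its printed promoter had 8.33, 8.38, 8.05 and 8.33 and then 5.87, 5.88, 5.59 and 5.53 (log2 fold -2.63, SE 0.22, adjusted p = 1.72e-06). Il34, a ligand of the M-CSF receptor, had a log2 fold of 0.18 (adjusted p = 0.376). Il22b and Il4i1 had log2 folds of 1.63 and -0.997 (adjusted p = 0.00492 and 0.00214).

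By position, 48 genes had a peak within 1000 bp of their start, and at those start peaks 7 rose and 17 fell. Those that rose belonged to Il7r, Il7, Il15, Il12rb2, Il11ra1, Il33 and Il10. The share over the start peaks of all genes was not computed. Of the 118 promoter peaks 16 were higher (13.6%, beside 15.3% of all promoter peaks) and 36 lower (30.5%, beside 27.2%). Of the 180 distal intergenic peaks tested, 36 were higher, a share slightly below the 21.3% of all such peaks. Lower were 28 of them (15.6%, beside 15.7% of all such peaks). Of the 132 intron peaks tested 24 were higher (18.2%, beside 22.1%) and 25 lower (18.9%, beside 15.6%). Of the 34 exon, UTR or downstream peaks 5 were higher (14.7%, beside 18.3%) and 11 lower (32.4%, beside 19.6%). Differences between classes were not tested.

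**Figure D2:**
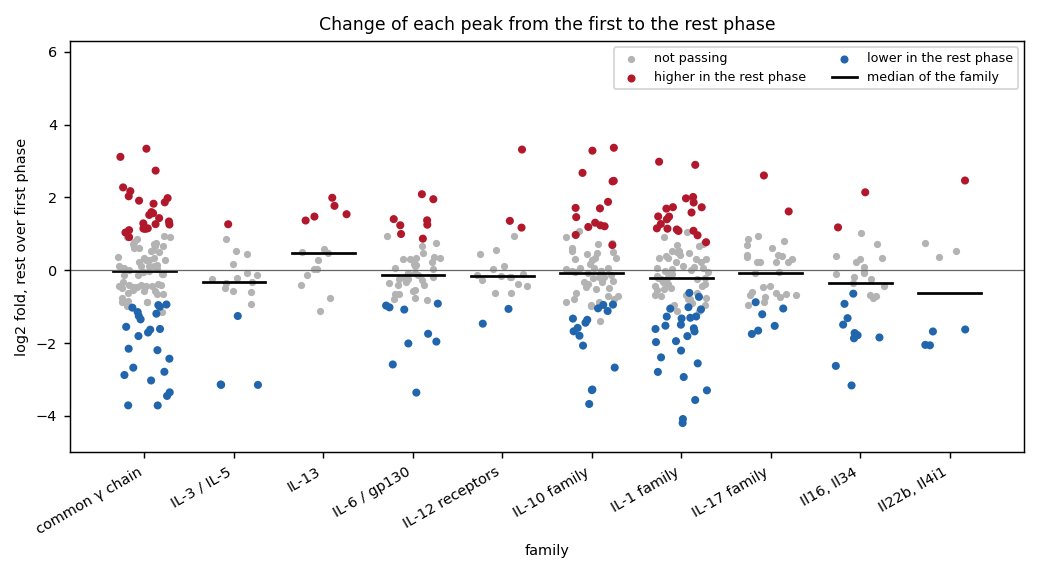
Log2 fold of each member peak, rest over first phase, by family (limma, quantile scaling, n = 4 against 3), with a point per peak, red where higher and blue where lower at an adjusted p under 0.05, and a black line at the median of the family. The IL-13 family has no blue point and every other family has both colours, from -4.19 at Il36g to 3.36 at Il20rb.

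Markers of other cell types moved between the same phases. Of 8 neutrophil markers 7 were lower in the rest phase and none higher, with a median log2 fold of -1.85, and their summed CPM (reads scaled to the total in peaks of the library) was 449 to 1130 in the first phase and 138 to 175 in the rest phase. Of 6 B cell markers 5 were lower (median -1.46, CPM of 178 to 505 and then 132 to 165). Of 11 macrophage markers 7 were higher and 1 lower (median 1.39, CPM of 691 to 1090 and then 1070 to 1480). Of the 9 T and NK cell markers with a peak, 2 were higher and 3 lower, and of the 3 mast cell and basophil markers with a peak 1 was lower. No marker with a peak was at 0 in any library, and the part of these cells in the changes of the interleukin genes was not tested. In bulk samples, fewer cells of a type and less accessibility per cell cannot be told apart.

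From the rest to the second phase, with all 4 libraries, no member peak and no member gene passed, and 0.0% of all peaks and 0.0% of all genes did (limma, n = 4 against 4). At an unadjusted p under 0.05 there were 77 of the 464 member peaks, beside 15966 of all 139557 peaks. Of the 63 member genes 8 were, beside 1646 of all 19377 genes. The smallest adjusted p over all peaks was 0.422. Without libraries A1 and B1, 71 member peaks (15.3%) were higher and 26 (5.6%) lower in the second phase, beside 9.14% and 6.11% of all peaks (limma, n = 2 against 4). Of the genes 10 (15.9%) were higher and 3 (4.76%) lower, beside 6.36% and 4.24% of all genes, and 50 did not pass. Median-of-ratios scaling gave 77 higher and 13 lower member peaks (85.6% of those called higher, against 73.2%), with the median log2 fold of all peaks at -0.037 in place of -0.147. The libraries left out were chosen on the same reads, so these counts are descriptions. Fewer member peaks were called with A2 or B2 as the only second-phase library, and 0 with A1 and B1 in place of A2 and B2. A lone library was assumed to vary like the rest phase. The comparison shares the 4 rest-phase libraries with the one above.

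Of the 111 tested peaks of common γ chain genes, which are 23.9% of the member peaks tested, 28 (25.2%) were higher and 2 (1.8%) lower, beside the 9.14% and 6.11% of all peaks. Of the 13 genes of this family 5 were higher, beside 6.36% of all genes. The family was not tested against the others. The rest-phase log2 levels of Il15 were 10.39, 10.39, 10.08 and 10.01 and those of the second phase 10.42, 10.97, 10.44 and 11.33, with a log2 fold of 0.95 in A2 and B2 (SE 0.16, adjusted p = 0.00902). Il15ra had 8.31, 8.36, 8.46 and 8.72 and then 8.58, 9.73, 8.56 and 9.52 (log2 fold 1.12, SE 0.15, adjusted p = 0.00361). In both genes A1 and B1 lay at or near the rest phase. Il7 had 7.28, 6.61, 7.12 and 7.31 and then 7.07, 8.06, 7.15 and 8.32 (log2 fold 1.08, SE 0.22, adjusted p = 0.0208). Il2rb had 5.56, 5.26, 6.60 and 5.24 and then 5.39, 7.18, 6.98 and 7.48 (log2 fold 1.68, SE 0.38, adjusted p = 0.0273), and here library B1 was high as well. Il2rg had 6.22, 6.17, 5.49 and 6.11 and then 6.27, 7.09, 4.84 and 6.90 (log2 fold 1.01, SE 0.25, adjusted p = 0.0383). This gene has 1 peak, which did not pass in the limma fit of peaks (log2 fold 0.75, SE 0.24, adjusted p = 0.0536). With all 4 second-phase libraries none of these 5 genes passed.

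Single peaks of this family reached the highest folds of all members. An intron peak of Il15, 25.4 kb inside the gene, had levels of 2.89, 2.17, 1.94 and 2.39 in the rest phase and of 3.00, 6.22, 2.32 and 6.80 in the second (log2 fold 4.34, SE 0.43, adjusted p = 0.000314 without A1 and B1, 0.422 with them). A peak assigned to Il15ra, 13.7 kb before its start and inside the 3′ UTR of its neighbour Il2ra, had 2.46, 1.5, 2.82 and 3.21 and then 3.21, 6.66, 3.45 and 6.62 (log2 fold 4.31, SE 0.50, adjusted p = 0.000564). A2 and B2 were above all other libraries at both. At the start of Il15, the peak rose by 1.70 (SE 0.26, adjusted p = 0.00207). For Il7r the sum did not pass (log2 fold 0.40, SE 0.16, adjusted p = 0.134), and a peak 71.4 kb before its start, in an exon of Spef2, rose by 3.40 (SE 0.45, adjusted p = 0.00102).

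In the IL-10 family, 11 of 74 peaks (14.9%) were higher and 5 (6.76%) lower, beside 9.14% and 6.11% of all peaks. Il10 did not pass as a sum (log2 fold 0.62, SE 0.29, adjusted p = 0.198). A peak 21.9 kb before its start had levels of 3.36, 3.75, 3.70 and 2.39 in the rest phase and of 3.83, 7.10, 3.99 and 7.60 in the second (log2 fold 4.15, SE 0.43, adjusted p = 0.000375). At this peak A2 and B2 were high and A1 and B1 near the rest phase. An intron peak of Il10rb, 10.5 kb inside the gene, was open in the first phase (7.27, 6.96, 7.40 and 5.21), low in the rest phase (1.94, 2.70, 3.12 and 3.79) and 3.54, 6.35, 2.68 and 5.82 in the second. Its log2 folds were -3.67 from first to rest (SE 0.53, adjusted p = 9.89e-05) and 3.36 from rest to second (SE 0.53, adjusted p = 0.00231). Il20rb rose as a sum by 0.58 (SE 0.11, adjusted p = 0.0125). An intron peak of Il20rb, 3.4 kb before the annotated start nearest to it, had a log2 fold of 4.11 (SE 0.42, adjusted p = 0.000368). A distal peak 103.8 kb beyond another start of the gene had -1.997 (SE 0.46, adjusted p = 0.0153).

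**Figure D3:**
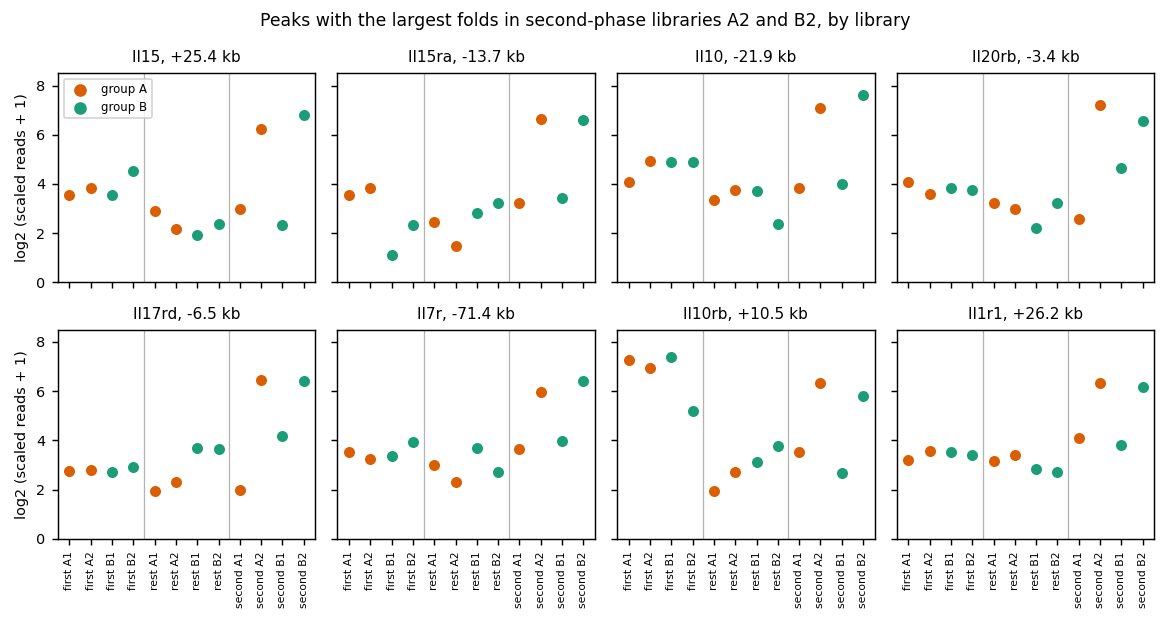
Log2 level (vertical axis, log2 of scaled reads plus 1) of 8 genes, each at its peak with the highest second-phase fold without A1 and B1, in each of the 12 libraries (horizontal axis), with group A in orange and group B in green. Second-phase A2 and B2 lie between 5.82 and 7.60 in all 8 peaks, and second-phase A1 and B1 between 1.97 and 4.65.

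In the IL-1 family, 15 of 102 peaks (14.7%) were higher and 8 (7.84%) lower without A1 and B1, beside 9.14% and 6.11% of all peaks. Il18bp had levels of 6.97, 6.59, 6.55 and 6.68 in the rest phase and of 7.20, 8.14, 6.36 and 7.99 in the second (log2 fold 1.34, SE 0.18, adjusted p = 0.00350). Il18r1, the ligand-binding chain of the IL-18 receptor, had 7.80, 8.01, 7.00 and 7.34 and then 7.92, 6.13, 7.86 and 6.69 (log2 fold -1.12, SE 0.29, adjusted p = 0.0435). Summed accessibility was thus higher at Il18bp, which has 2 peaks, and lower at Il18r1 in A2 and B2 than in the rest phase. The start peaks of Il18bp and Il18r1 did not pass (log2 folds 0.31 and 0.18, adjusted p = 0.495 and 0.824). Il18rap, the other receptor chain, did not pass as a sum (log2 fold -0.38, adjusted p = 0.562). Il1r1 and Il1rl2 did not pass as sums (0.32 and 0.18), while an exon peak of Il1r1 rose by 3.35 (SE 0.38, adjusted p = 0.000492) and an intron peak of Il1rl2 by 3.29 (SE 0.40, adjusted p = 0.000652). The start peak of Il1rap fell by 0.91 (SE 0.24, adjusted p = 0.0252).

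Among the other families, Il6ra fell by 0.60 on the log2 scale (SE 0.12, adjusted p = 0.0182) and Il17d, a cytokine, by 0.70 (SE 0.15, adjusted p = 0.0251). Il13, a type 2 cytokine, rose by 0.96 (SE 0.16, adjusted p = 0.00923), Il31 by 1.02 (SE 0.22, adjusted p = 0.0241) and Il4i1 by 1.03 (SE 0.23, adjusted p = 0.0271). For Il13, Il31 and Il4i1, second-phase B1 (7.23, 7.01 and 8.14) also lay above all rest-phase libraries, and A1 (6.45, 6.19 and 7.51) did not. The start peak of Il23r, in the printed promoter with the κB match, had levels of 1.12, 2.54, 3.12 and 3.53 in the rest phase and of 2.35, 5.53, 3.63 and 5.37 in the second (log2 fold 3.02, SE 0.63, adjusted p = 0.00939). The start peak of Il12rb2 had 8.30, 8.52, 8.11 and 8.16 and then 8.01, 7.56, 8.16 and 7.44 (log2 fold -0.68, SE 0.17, adjusted p = 0.0223). Peaks of Il17rd 6.5 kb before and 5.8 kb inside the gene had log2 folds of 3.71 (SE 0.56, adjusted p = 0.00193) and -1.46 (SE 0.29, adjusted p = 0.00729). Promoter peaks were higher in 15 of 118 cases (12.7%, beside 6.13% of all promoter peaks) and intron peaks in 22 of 132 (16.7%, beside 10.5%). Distal peaks were higher in 24 of 180 (13.3%, beside 10.3%) and exon, UTR or downstream peaks in 10 of 34 (29.4%, beside 8.12%), with no test between classes.

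**Figure D4:**
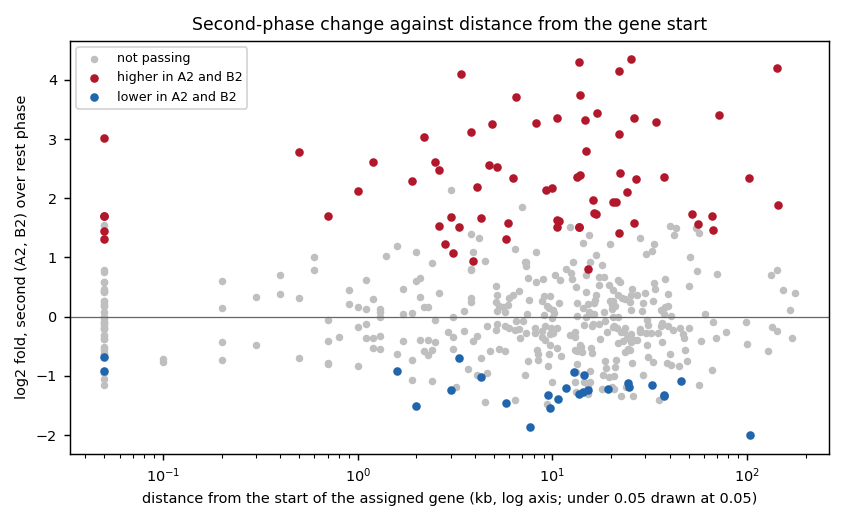
Log2 fold of each member peak without second-phase A1 and B1, second over rest phase (vertical axis), against its distance from the start of the assigned gene in kb (horizontal log axis), with red higher and blue lower at an adjusted p under 0.05. Higher peaks occur from the start itself to 143.9 kb, and the highest fold, 4.34, is at 25.4 kb.

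Within the first phase, 0 of 467 member peaks differed between groups A and B at an adjusted p under 0.05 in the authors' deposited table, where 0.0% of all peaks did, and 2 did at an unadjusted p under 0.05. limma on recovered reads also called 0 of 464 member peaks, with 11 at an unadjusted p under 0.05, beside 5214 of all 139557 peaks.

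Within the rest phase, the authors' deposited table called 197 member peaks (42.2%) higher in A and 0 higher in B, beside 39.7% and 0.0929% of all peaks. The median deposited log2 fold of the members was 1.075 and that of all peaks 1.039. Reads in peaks were 18602644 and 15990425 for A, and 5454821 and 8770052 for B. With quantile scaling, limma called 42 member peaks (9.05%) higher and 18 (3.88%) lower in A, beside 6.48% and 5.56% of all peaks (n = 2 against 2). The deposited table and limma both called 41 peaks, all higher in A, while 155 passed in the deposited table only and 19 in limma only. With any 1 of the 4 libraries left out, limma called no peak, member or other.

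Of the 102 peaks of the IL-1 family, 22.0% of the member peaks tested, limma called 15 (14.7%) higher and 1 (0.98%) lower in A, beside the 6.48% and 5.56% of all peaks, with no test against the other families. Its receptor genes Il1r1, Il1rl2, Il1rl1, Il18r1 and Il18rap lie next to each other on chromosome 1. An intron peak of Il1rl2 (chr1:40358826-40359225) had log2 means of 8.16 in A and 4.58 in B in the authors' deposited table (log2 fold 2.86, adjusted p = 4.12e-05). Its log2 levels were 7.45 and 6.97 in A, against 5.67 and 5.02 in B (limma log2 fold 1.87, adjusted p = 0.00458). A peak in Il1rap (chr16:26626067-26626466), 1.9 kb beyond the annotated start nearest to it, had 7.21 and 6.98 in A and 6.08 and 5.67 in B (limma log2 fold 1.22, adjusted p = 0.00904). The groups did not overlap at either. A peak 36.0 kb before the annotated start of Il1rl1 nearest to it had 7.39 and 7.32 in A and 6.21 and 5.77 in B (limma log2 fold 1.34, adjusted p = 0.00535). One 39.1 kb before Il12rb2 had 5.26 and 5.66 in A and 3.53 and 4.01 in B (limma log2 fold 1.78, adjusted p = 0.0154). An exon peak of Il1r1 had 4.91 and 4.68 in A and 1.94 and 3.21 in B (limma log2 fold 2.42, adjusted p = 0.0238). Which group is Diabetic-trained cannot be read from the table.

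**Figure D5:**
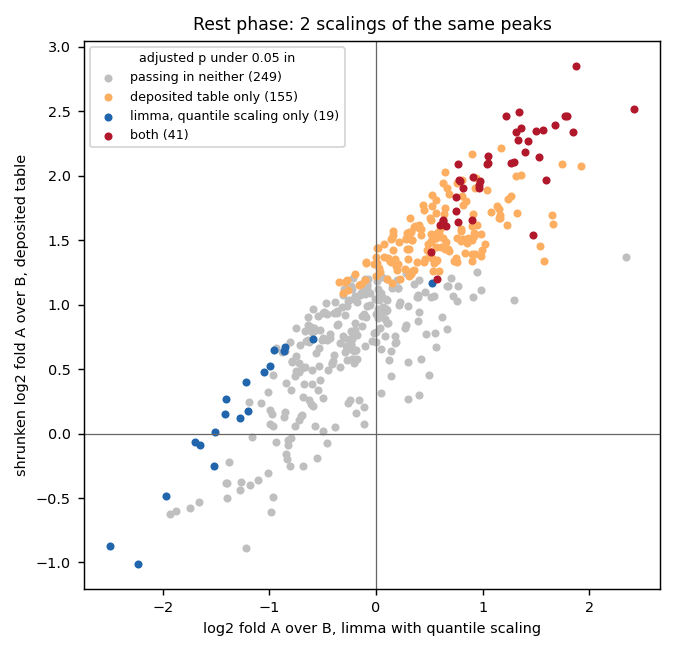
Log2 fold of group A over B in the rest phase for each member peak, from limma with quantile scaling (horizontal axis) and as the shrunken fold of the deposited table (vertical axis), coloured by which of them passed. The 41 peaks that passed in both lie on the right, and most of the 155 that passed in the deposited table only lie near or right of 0 in limma.

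Within the second phase, the authors' deposited table called 119 member peaks (25.5%) higher in A and 0 higher in B, beside 26.7% and 0.00429% of all peaks. limma with quantile scaling called 0, with 4 of 464 member peaks at an unadjusted p under 0.05, beside 1076 of all 139557 peaks. Each group here holds 1 library near the rest phase and 1 that is not. The start peak of Il4 had log2 levels of 4.86 and 4.55 in A, against 2.03 and 3.49 in B, and the authors' deposited table gave a log2 fold of 1.98 (adjusted p = 0.0242). The distal peak of Il10ra 11.7 kb before its start had 6.60 and 5.70 in A, against 5.78 and 4.93 in B, which overlap, where the authors' deposited table gave a log2 fold of 1.88 (adjusted p = 0.0242).

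Of 44 other genes of interleukin signalling, 9 (20.5%) were higher and 14 (31.8%) lower in the rest than in the first phase, near the 25.5% and 26.6% of all genes, and none passed from the rest to the second phase with all libraries. Myd88, the adaptor of IL-1 receptors, fell by 1.247 on the log2 scale (SE 0.20, adjusted p = 0.000533). Jak3, the kinase that binds the common γ chain, fell by 1.09 (SE 0.21, adjusted p = 0.00148), and Csf2rb2, a chain of the mouse IL-3 receptor, rose by 0.92 (SE 0.18, adjusted p = 0.00139). Without second-phase A1 and B1, 8 of the 44 (18.2%) were higher and 2 (4.55%) lower in the second phase, beside 6.36% and 4.24% of all genes. Cish, a feedback inhibitor of cytokine receptors, rose by 0.99 (SE 0.12, adjusted p = 0.00207) and Socs1, an inhibitor of Janus kinases, by 0.66 (SE 0.12, adjusted p = 0.0103).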

How the data were processed

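Tn5 transposase libraries of 12 samples were sequenced on DNBSEQ, per the labels' protocols. The submitters' processing notes name build mm10 and, with no roles, DiffBind 3.14.0, DESeq2, MACS2, HOMER 5.1, Bowtie2 2.5.4, bedtools 2.28.0, Picard 3.2.0 and deepTools 3.2.1. The authors deposited 1 table per phase with log2 group means, a shrunken log2 fold change, p-values and adjusted p-values, per the file headers and values, and with the nearest gene. Deposited folds were turned to A over B.

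Each group mean averages the whole reads of 2 libraries after a scaling factor per library. All means above the floor were solved with exactly 1 pair (largest relative miss 3.46e-09). Reads of all 12 libraries were available for 139557 peaks, 464 of them members, and 442 peaks with a listed 0 were not tested. Reads were quantile-scaled over the libraries compared and tested as log2 (value + 1) with limma 3.58.1 in R 4.3.3 (empirical Bayes with a trend, Benjamini-Hochberg over all 139557 peaks or 19377 gene sums, two-sided). Recovery and tests were checked on simulated data. Within phases the main calls are the authors'.

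Named genes were, per comparison of phases, the 10 members with the largest called fold in each direction, per phase the 5 with the smallest deposited adjusted p, and 31 genes always considered. Members, lists and this rule were chosen with earlier results of these data known. Alternatives were other scalings, pseudocount 4, a mean of at least 10 reads, leaving out libraries, the first-phase pair as 2 samples and an adjusted p under 0.01. Marker lists (macrophage, T and NK cell, B cell, neutrophil, mast cell and basophil, stromal, dendritic) and the signalling list were read as gene sums. Of 6 stromal markers 1 was higher in the rest phase, and of 3 dendritic markers with a peak 1 was higher and 1 lower. RefSeq tables gave promoter windows and the genes that contain peaks.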

Additional observations from a re-analysis of the deposited data

Results flagged for a closer look

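In 62 tests of 4 libraries of a phase, 3 genes had 1 library whose gap to the nearest other exceeded Dixon's critical value at the 95% level, where chance gives about 1 in 20. Il2rg, the common γ chain, was 5.49 in rest-phase library B1 on the log2 scale, beside 6.11 to 6.22 in the other rest-phase libraries. Il23r, the IL-23 receptor, was 6.82 in second-phase A1, beside 7.52 to 7.66. Il34, a ligand of the M-CSF receptor, was 7.54 in rest-phase B2, beside 7.89 to 7.93.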

How the results depend on the processing

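No paired analysis was possible because the columns carry no replicate numbers. For the rest against the first phase, the 181 member peaks called ranged from 155 (without first-phase B1) to 203 (first-phase pair as 2 samples) and the 36 genes from 29 to 39. The 20 named peaks of this comparison kept direction and call under every alternative run. Of 31 genes always considered, 15 values of 6 genes lost the call and 7 values of 4 genes gained it, with no called direction reversed. For the second against the rest phase, counts were 0 under every other scaling, pseudocount, filter and single left-out library, and 97 peaks and 13 genes without second-phase A1 and B1. These 97 became 0 with A1 and B1 in place of A2 and B2, and fewer with A2 or B2 as the only second-phase library. They were at most 113 when 1 further library was left out. For the rest phase, the 197 deposited calls became 76 at a deposited adjusted p under 0.01, 60 with limma and quantile scaling, 100 with limma and total reads in peaks (76 higher in A and 24 lower, against 42 and 18), and 0 to 0 when any library was left out. For the second phase, the 119 became 0 at an adjusted p under 0.01, 0 with limma under either scaling, and 0 to 0 when any library was left out. The causes were not tested, beyond fewer libraries being tested. Median reads per peak of 9 in first-phase group A limit the precision of low peaks.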
